A study of Mus musculus with 4 samples.

Results

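The 10 immediate-early genes described here were followed across the cell types and cortical layers of the adult mouse cerebral cortex. They were taken by symbol from the deposited gene list and were Fos, Fosb, Junb, Egr1, Egr3, Arc, Npas4, Nr4a1, Nr4a3 and Homer1, 10 of the 21933 genes counted. The data were single-nucleus RNA-seq libraries (droplet capture, 3' tags, unique molecular identifiers or UMIs) of nuclei sorted from the right cortex of 4 adult male mice on a C57Bl/6J background. A pair of the mice were untreated controls (CrT+/y) and the other pair were untreated CrT-KO littermates (CrT-/y), in which exons 5 to 7 of Slc6a8, the X-linked creatine transporter gene, are deleted in every cell of the body. Each library came from 1 animal with no pooling, so every comparison of genotypes rested on 2 animals against 2. Tissue was taken in the light phase, and the study describes no stimulus given to these mice. Killing, dissection and isolation of nuclei came before capture, and their part in the levels below was not tested.

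Immediate-early genes are switched on within minutes of synaptic activity or growth factor signals, without new protein synthesis, and their transcripts are short-lived. Calcium entry and kinase cascades act on factors already bound at their promoters, among them CREB at cAMP response elements, serum response factor at CArG boxes and MEF2. Fos, Fosb and Junb encode subunits of the AP-1 transcription factor, Egr1 and Egr3 encode zinc finger factors, Npas4 encodes a factor induced by calcium entry in neurons, and Nr4a1 and Nr4a3 encode orphan nuclear receptors. Arc and Homer1 encode synaptic proteins, Arc acting in the removal of AMPA receptors and Homer1 in the scaffold of metabotropic glutamate receptors. In the cortex these genes are widely used as marks of recently active neurons.

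The 4 libraries held 35694 nuclei, 8282 to 9295 each, with 51507480 to 65240840 UMIs per library and median UMIs per nucleus of 5548 to 6700.5. Values are given in the order control 1, control 2, CrT-KO 1, CrT-KO 2 throughout, and levels are UMIs per 1000000 UMIs of the population's sum in that library (CPM). Slc6a8, the targeted gene, was at 7.21, 6.12, 1.63 and 1.63 CPM, so both CrT-KO libraries were below both control libraries and matched their labels. The barcodes shared by pairs of libraries numbered 12 to 19. After 1213 nuclei called as doublets were left out, 34481 were clustered without the 10 genes or other activity-regulated genes and named "-like" where marker genes fixed for the work supported it, which left 2369 unnamed. The largest unnamed cluster, of 1348 nuclei, scored highest for excitatory markers but had an astrocyte marker, Bmpr1b, among its leading genes. It is absent from the excitatory class below. Galnt14 and Sulf1, layer 6 intratelencephalic (L6 IT) markers, were also among those genes, and no L6 IT subclass was named. The named populations comprised 15377 excitatory nuclei, of which 11261 fell into 8 layer or projection subclasses, and 7983 inhibitory nuclei, of which 5268 fell into 5 subclasses. Oligodendrocytes, oligodendrocyte precursors (OPCs), microglia, astrocytes and a vascular class made up the rest. An MSN-like subclass of 1756 nuclei carried markers of striatal medium spiny neurons, although the labels gave the tissue as cortex only. The inhibitory class is thus broader than cortical interneurons. Of its 7983 nuclei 5268 had a subclass name, and 1756 of these were MSN-like, so named interneurons were a minority of the class. Levels and tests given below for inhibitory neurons are those of this mixture. The class also held clusters without a subclass name. A cluster of 643 nuclei scored highest for MSN markers, and a cluster of 777 scored below 0 for every subclass. Another, of 378, had Slc17a6, an excitatory marker, among its leading genes.

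The promoters of these genes carry the elements through which calcium signals act, so the 250 bases before the start of transcription were read for the 7 members with an entry in the RefSeq table (GRCm38.p6). The windows of 4 of them are shown, 5' to 3' in the direction of the gene, chosen because they hold no annotated exon and cover an AP-1 subunit with a TATA box, an AP-1 subunit without one, a nuclear receptor and a synaptic scaffold. Capitals mark TGACG or its reverse complement CGTCA, the core of the cAMP response element. They are Fos (chr12:85473640-85473889, plus strand), Junb (chr8:84978749-84978998, minus strand), Homer1 (chr13:93303507-93303756, plus strand) and Nr4a1 (chr15:101266596-101266845, plus strand).
Fos: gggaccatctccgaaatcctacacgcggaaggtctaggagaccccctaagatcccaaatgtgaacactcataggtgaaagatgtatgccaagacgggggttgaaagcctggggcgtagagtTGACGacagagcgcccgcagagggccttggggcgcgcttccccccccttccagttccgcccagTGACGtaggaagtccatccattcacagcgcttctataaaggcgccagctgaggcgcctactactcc
Junb: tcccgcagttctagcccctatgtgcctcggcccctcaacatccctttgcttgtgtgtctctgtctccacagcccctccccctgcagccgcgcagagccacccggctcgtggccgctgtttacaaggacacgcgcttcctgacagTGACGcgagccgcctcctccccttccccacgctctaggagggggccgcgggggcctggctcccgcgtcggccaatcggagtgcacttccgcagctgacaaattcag
Homer1: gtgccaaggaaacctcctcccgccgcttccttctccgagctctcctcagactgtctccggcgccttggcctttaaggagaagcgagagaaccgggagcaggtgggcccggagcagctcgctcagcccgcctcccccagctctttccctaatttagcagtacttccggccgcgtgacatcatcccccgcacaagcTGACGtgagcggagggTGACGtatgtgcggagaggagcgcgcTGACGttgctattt
Nr4a1: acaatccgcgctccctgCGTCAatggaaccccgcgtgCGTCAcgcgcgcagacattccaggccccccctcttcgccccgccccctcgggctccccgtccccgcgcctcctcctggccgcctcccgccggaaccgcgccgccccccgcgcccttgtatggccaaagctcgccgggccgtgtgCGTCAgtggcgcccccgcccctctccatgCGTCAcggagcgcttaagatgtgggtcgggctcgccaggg

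The core TGACG stood on either strand in 7 of the 8 windows of these 7 genes, at least 1 per gene, where it stood in 17.7% of all 32817 promoter windows of the same length. Fos held 2 cores, starting 129 and 66 bases before the start, Junb 1 at 106, Homer1 3 at 56, 40 and 14, and Nr4a1 4 at 233, 213, 69 and 40. Of the windows not shown, Nr4a3 held 4 cores, Npas4 2 and Fosb 1, but 250 of the 250 bases of the Npas4 window and 152 of those of Nr4a3 lie in annotated exons, so these reach into transcribed sequence. The Homer1 and Nr4a1 windows shown hold no annotated exon, but they too lie inside the annotated loci of these genes, downstream of the locus start. The window of a second Homer1 start, farther downstream, held 0. The full 8-base palindrome TGACGTCA was in 0 of the 7 genes (1.55% of all windows), and the CArG box, searched by its usual consensus, was also in 0 of 7 (1.47%). The EGR site GCGNGGGCG was in 2 of the 7 genes, Fosb and Nr4a1 (4.7%), and TATAAA in 1 of 7, Fos (7.6%). These matches are letters in a short window, and no binding was measured. Egr1, Egr3 and Arc had no entry and were not searched, and neither were bases farther upstream. A count of 0 of 7 therefore does not show that these genes lack the element.

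The genes lie apart in the genome. On the GRCm38 (mm10) build of the mouse they are Fos at chr12:85473890-85477273, Fosb at chr7:19302696-19310051, Junb at chr8:84974484-84978718, Egr1 at chr18:34859823-34864984 and Egr3 at chr14:70077203-70082614. The others are Arc at chr15:74669083-74672570, Npas4 at chr19:4984355-4990316, Nr4a1 at chr15:101254269-101274795, Nr4a3 at chr4:48045153-48086447 and Homer1 at chr13:93299635-93405129. Junb was the only member whose locus overlapped another counted gene, Prdx2, on the opposite strand. Reads over introns were counted with those over exons, and the share of each locus that is exonic ran from 11.4% in Homer1, which spans 105495 bases, to 87.6% in Arc, which spans 3488. Homer1 counts therefore came from the whole long gene, and the short activity-induced form Homer1a was not separable from the constitutive long forms.

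All 10 genes were detected, and 5 of them separated the excitatory from the inhibitory class in every library. In excitatory neurons Homer1 was at 608.6, 559.6, 590.3 and 473.4 CPM, against 233.3, 234.6, 251.4 and 212.6 in inhibitory neurons, a ratio of means of 2.40. Nr4a1 was at 69.3, 68.1, 75.6 and 61.8 CPM in excitatory and 27.6, 25.2, 31.3 and 24.3 in inhibitory neurons, a ratio of 2.54. For both genes the lowest excitatory library was above the highest inhibitory library. The same held for Arc, with 9.86, 12.7, 8.26 and 5.92 CPM against 2.52, 2.41, 2.43 and 1.39 (ratio 4.20). It also held for Egr3, with 17.8, 15.9, 13.0 and 7.64 against 6.65, 5.05, 4.99 and 3.51 (2.69), and for Egr1, with 14.0, 15.2, 11.7 and 9.46 against 6.73, 7.46, 7.35 and 4.90 (1.91). The ranges of the other 5 genes overlapped between the classes. Nr4a3, for example, was at 33.4, 20.1, 28.3 and 16.4 CPM in excitatory and 25.6, 14.8, 17.5 and 10.6 in inhibitory neurons. Npas4 was at 6.75, 7.12, 6.10 and 2.67 CPM against 3.87, 7.61, 4.25 and 2.68.

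**Figure D1:**
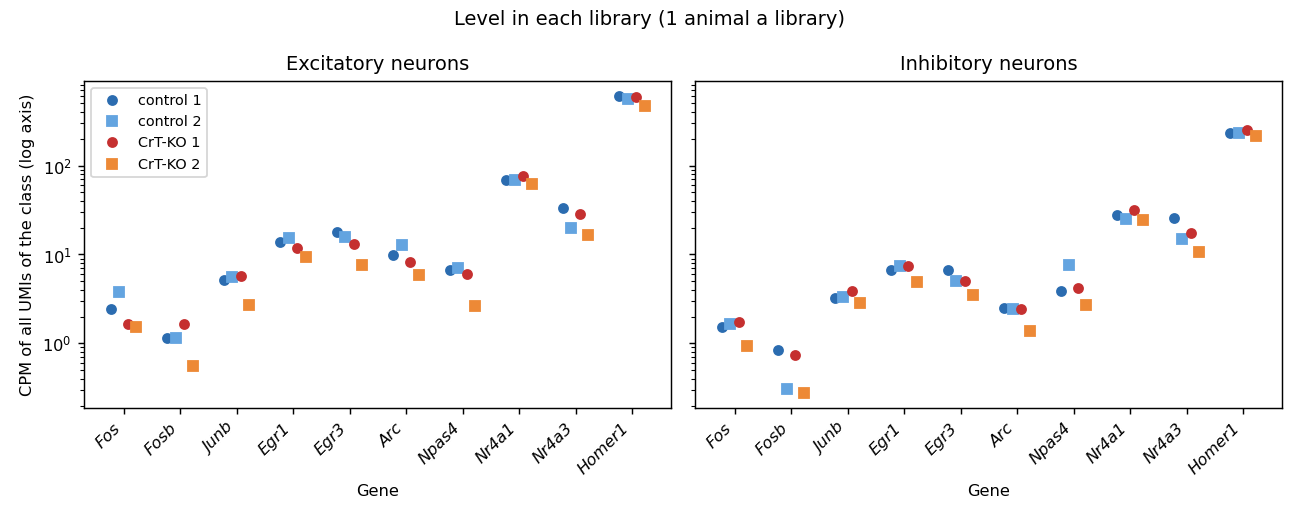
Level of each gene (CPM, log axis) in excitatory neurons (left) and inhibitory neurons (right), 1 point per library, blue for control and red or orange for CrT-KO. Egr1, Egr3, Arc, Nr4a1 and Homer1 have every excitatory point above every inhibitory point of the same gene, and the other 5 genes overlap.

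Transcripts of most members were found in a minority of nuclei. With every neuron thinned to 4000 UMIs, a UMI of Homer1 was present in 74.5% of excitatory and 51.5% of inhibitory nuclei (means of 4 libraries), and one of Nr4a1 in 22.5% and 9.59%. Nr4a3 was present in 6.78% and 4.14%, Egr3 in 4.90% and 1.79%, Egr1 in 4.82% and 2.75%, and Arc in 3.49% and 0.89%. Junb followed at 2.06% and 1.49%, Npas4 at 2.05% and 1.48%, Fos at 0.90% and 0.60% and Fosb at 0.40% and 0.18%. Without thinning the excitatory shares were 87.3% for Homer1, 38.3% for Nr4a1, 11.6% for Nr4a3 and 6.93% for Arc. Thinning left out 817 excitatory nuclei.

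Free RNA can add to such shares, so oligodendrocytes were read beside the neurons. They have median UMIs of 1220 to 1416 against 7240.5 to 8796.5 in excitatory neurons. With all nuclei thinned to 1000 UMIs, Arc was in 0.896% of excitatory, 0.260% of inhibitory and 0.645% of oligodendrocyte nuclei. Egr1 was in 1.46%, 0.649% and 0.657%. The inhibitory shares of Arc and Egr1 were thus at or below those of oligodendrocytes, and that of Egr3 (0.594% against 0.432% in oligodendrocytes) was close. What part of the oligodendrocyte or inhibitory shares was free RNA was not tested. Nr4a1 (7.11%, 2.42%, 1.18%), Nr4a3 (2.09%, 1.67%, 0.551%) and Npas4 (0.556%, 0.370%, 0.0789%) exceeded the oligodendrocyte share in both neuronal classes. Fosb had a UMI in 0 of 5122 oligodendrocytes before thinning, which allows a share of up to 0.0586%, counting error only.

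**Figure D2:**
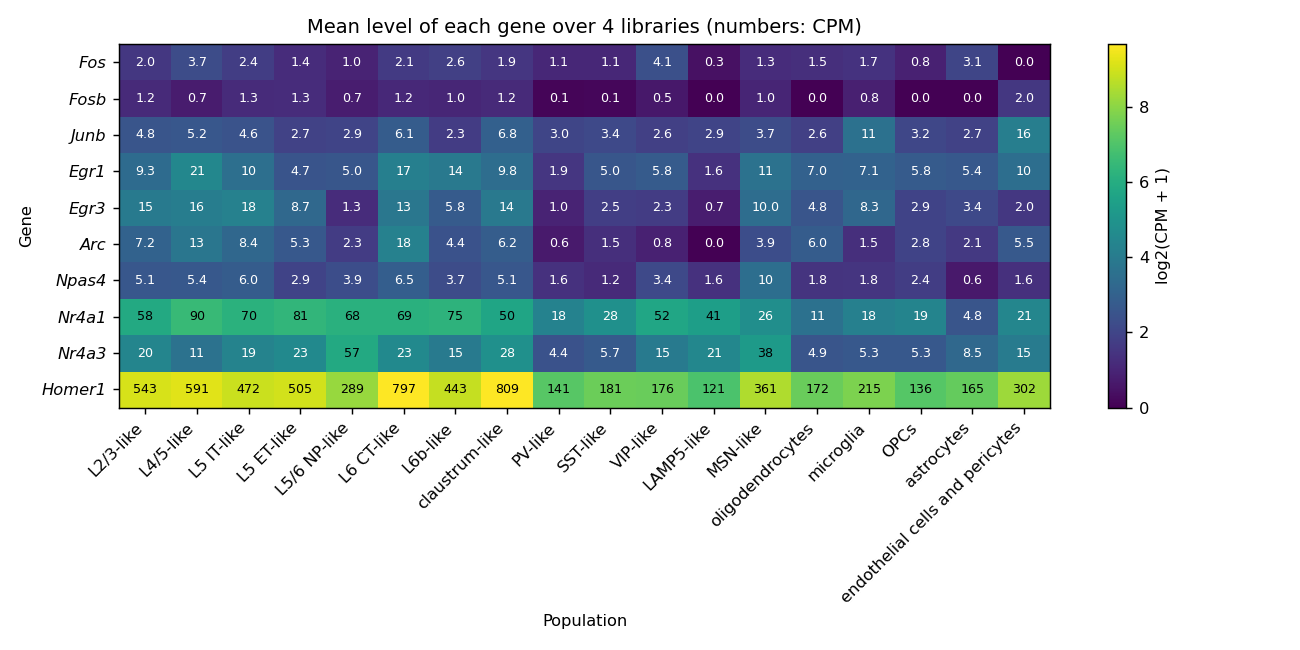
Mean CPM over 4 libraries of the 10 genes (rows) in 18 populations (columns), written in each cell and coloured as log2(CPM + 1). Within its row, Egr1 is highest in L4/5-like, Arc in L6 CT-like, Egr3 in L5 IT-like and Nr4a3 in L5/6 NP-like nuclei, and PV-like nuclei are low in most rows.

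Among excitatory neurons Egr1 had its highest mean in L4/5-like and Egr3 in L5 IT-like nuclei. Egr1 was at 24.8, 28.1, 15.8 and 16.2 CPM in L4/5-like nuclei, whose cells receive the main thalamic input, and at 16.3, 23.4, 17.5 and 10.5 in the L6 CT-like nuclei of corticothalamic cells. It was at 10.7, 10.8, 8.81 and 6.98 in L2/3-like nuclei and at 3.26, 7.04, 4.21 and 4.39 in L5 ET-like nuclei, the type that projects out of the telencephalon. The L4/5-like libraries were all above every L5 ET-like and every L2/3-like library, whereas they overlapped L6 CT-like. Egr3 was highest in L5 IT-like nuclei, which project within the telencephalon, at 26.4, 19.0, 20.4 and 6.71 CPM. It was close to this in L4/5-like (20.3, 20.8, 14.5 and 8.23), L2/3-like (19.1, 17.9, 13.6 and 7.89) and L6 CT-like nuclei (17.9, 15.8, 13.7 and 5.92), and the 4 ranges overlapped. L5/6 NP-like nuclei, the near-projecting type, held Egr3 at 0, 2.76, 1.24 and 1.27 CPM, from 0 to 2 UMIs per library.

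The synaptic effectors were both high in L6 CT-like nuclei. Arc was at 17.5, 26.5, 15.6 and 11.8 CPM in L6 CT-like nuclei, followed by L4/5-like nuclei at 12.9, 17.8, 12.9 and 8.46, and these ranges overlapped. Arc in L2/3-like nuclei was at 8.01, 10.1, 6.49 and 4.40, below every L6 CT-like library. Homer1 was at 912.7, 823.9, 849.5 and 600.2 CPM in L6 CT-like nuclei and at 742.8, 727.5, 1043.0 and 723.2 in claustrum-like nuclei, a population of 249 nuclei. It was at 573.1, 551.2, 573.2 and 474.0 in L2/3-like nuclei, and at 313.6, 254.2, 331.6 and 258.1 in L5/6 NP-like nuclei, the lowest among excitatory subclasses.

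Nr4a genes followed another order. Nr4a3 had its highest mean in L5/6 NP-like nuclei, at 68.9, 80.1, 47.2 and 30.5 CPM. In that subclass Egr3 and Arc had their lowest means among excitatory subclasses (1.32 and 2.27). The Nr4a3 range overlapped those of claustrum-like (11.8 to 36.1) and L6 CT-like nuclei (12.7 to 36.7), and that of MSN-like nuclei (24.4 to 52.9). L4/5-like nuclei, where Egr1 was highest, held Nr4a3 at 15.8, 9.70, 13.7 and 6.11, the lowest excitatory mean, and every NP-like library was above every L4/5-like library. The L4/5-like mean, 11.3, was no longer the lowest when 1 cluster of 504 nuclei was left out of L2/3-like nuclei (6.59). Nr4a1 varied less, from 88.4, 96.4, 92.5 and 82.3 CPM in L4/5-like nuclei through 84.3, 73.1, 86.3 and 79.0 in L5 ET-like nuclei to 43.3, 33.8, 65.4 and 57.0 in claustrum-like nuclei. Npas4 was at 4.16 to 8.47 CPM in L6 CT-like and at 2.58 to 8.10 in L2/3-like nuclei, with no excitatory subclass standing apart.

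AP-1 subunits were too sparse for an order. Fos had 60 UMIs in all in L2/3-like nuclei and 69 in L4/5-like nuclei, and Fosb 37 and 12. Fos in L4/5-like nuclei was at 2.97, 6.47, 3.07 and 2.35 CPM, and in L2/3-like nuclei at 1.74, 3.59, 1.71 and 0.911. Junb was at 6.45, 9.15, 6.59 and 2.19 CPM in L6 CT-like and 6.41, 5.05, 4.77 and 3.04 in L2/3-like nuclei, and these ranges overlapped.

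**Figure D3:**
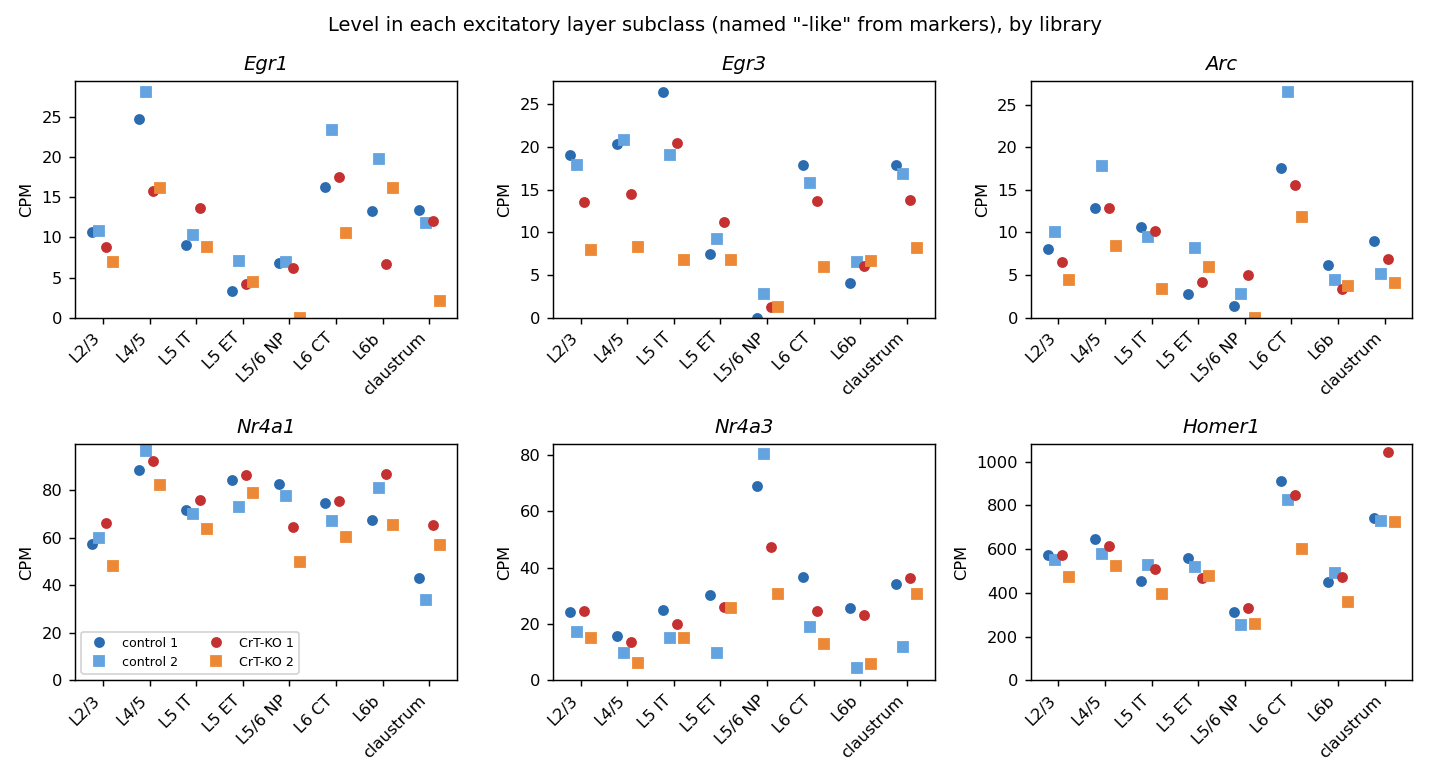
Level (CPM) of Egr1, Egr3, Arc, Nr4a1, Nr4a3 and Homer1 in the 8 excitatory subclasses, 1 point per library, blue for control and red or orange for CrT-KO. Nr4a3 has its highest mean in L5/6 NP-like nuclei, where the means of Egr3 and Arc are lowest, and Arc and Homer1 are high in L6 CT-like nuclei.

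Interneurons differed among themselves as well. PV-like nuclei, the fast-spiking type, were at 2.86, 1.70, 2.91 and 0 CPM for Egr1, at 0, 2.12, 0.364 and 1.36 for Egr3 and at 0.817, 1.70, 0 and 0 for Arc. Nr4a1 in PV-like nuclei was at 18.4, 14.8, 22.9 and 17.2 CPM, the lowest neuronal mean. VIP-like nuclei, which inhibit other interneurons, held Nr4a1 at 61.2, 55.7, 57.2 and 33.0 CPM, and every VIP-like library was above every PV-like library. SST-like nuclei, which target dendrites, were at 21.3, 22.6, 39.1 and 28.1 for the same gene. LAMP5-like nuclei held 0 UMIs of Arc in all 4 libraries, against a floor of 3 UMIs that a count of 0 allows.

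MSN-like nuclei were the inhibitory subclass highest in several members. Their Egr1 was at 11.8, 15.8, 7.80 and 10.1 CPM, Egr3 at 14.9, 9.00, 10.1 and 5.83, and Nr4a3 at 52.9, 37.1, 36.4 and 24.4. Npas4 was at 8.59, 15.4, 8.45 and 8.48 CPM, the highest mean of the 18 populations, a rank that was lost when 1 cluster of 197 of the 1756 nuclei was left out. Homer1 was at 351.0, 385.4, 378.1 and 329.8, above every library of the other inhibitory subclasses. For Homer1, every library of the other 4 inhibitory subclasses was below every library of the 8 excitatory subclasses.

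Glial and vascular nuclei carried few UMIs of these genes. Arc in oligodendrocytes came from 15, 20, 7 and 4 UMIs, or 8.87, 8.92, 4.10 and 2.24 CPM, a range that overlapped that of excitatory neurons. The 15 excitatory marker genes summed to 1421, 1363, 1725 and 1416 CPM in the same oligodendrocytes and to 9476 to 9780 CPM in excitatory neurons. Junb was at 12.5, 4.65, 18.0 and 9.20 CPM in microglia, from 3 to 11 UMIs per library. Its vascular mean (16.4 CPM, from 7 UMIs in all) and its microglial mean (11.1) were the highest of the 18 populations. Both ranges overlapped that of claustrum-like nuclei (mean 6.80), the next in order. Homer1 was at 147.5 to 198.9 CPM in oligodendrocytes, 204.1 to 238.9 in microglia and 99.04 to 177.1 in OPCs. Over the 18 populations ordered by mean level, 4 pairs of neighbours had ranges that did not overlap and 166 overlapped. The pairs that stood apart were Egr1 between L5 ET-like and PV-like nuclei, Homer1 between L5/6 NP-like nuclei and microglia, and Nr4a1 between microglia and oligodendrocytes and between oligodendrocytes and astrocytes.

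The members fell into pairs with like and unlike profiles. Across the 13 neuronal subclasses, Pearson's r of log2(CPM + 1) was 0.95 for Arc and Homer1, 0.92 for Egr3 and Arc, 0.91 for Egr3 and Homer1 and 0.88 for Egr1 and Arc. It was 0.26 for Arc and Nr4a3, 0.24 for Egr3 and Nr4a3 and 0.23 for Egr1 and Nr4a3. These are descriptions, since the subclasses share libraries and differ in depth. Outside the members, 11400 genes were compared with the summed members over 18 populations. The most alike were Lingo1 (0.93), Vmn2r85 (0.93), Icam5 (0.93), Sv2b (0.92), Nptn (0.92) and Cnksr2 (0.91). Homer1 made up most of that sum, and without it the most alike was Pcsk2 (0.94).

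Levels also varied within subclasses. A cluster of 504 nuclei inside the L2/3-like subclass, 2.96%, 3.14%, 3.79% and 3.17% of excitatory nuclei, held Nr4a3 at 124.5, 86.4, 98.1 and 64.1 CPM. Its leading genes were Tnfaip6, Mapk4, Baz1a, Pde7b, Arhgap31, Elmo1, Bdnf, Itgav, Pam and Sik2, none of them among the L2/3 markers, although 7 L2/3 markers were detected in it. Baz1a and Bdnf are on the fixed list of later activity-regulated genes, which took no part in the clustering. Npas4 was at 20.8, 18.0, 10.2 and 7.43 CPM there, Egr3 at 45.5, 32.4, 32.0 and 15.8, Nr4a1 at 132.4, 121.5, 146.1 and 122.7 and Homer1 at 1185, 1036, 982 and 787. In the largest other L2/3-like cluster Nr4a3 was at 9.26, 5.95, 4.93 and 5.10 and Homer1 at 540.5, 539.6, 543.5 and 472.5. The cluster was found in all 4 libraries. It was singled out as the excitatory cluster with the highest summed level of the 9 genes other than Homer1. Its high levels of these genes are therefore what it was chosen by, and they are not separate evidence.

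With that cluster left out, L2/3-like Nr4a3 was at 8.49, 5.30, 7.11 and 5.44 CPM in place of 24.2, 17.3, 24.5 and 15.0, and Egr3 at 15.0, 15.4, 9.23 and 6.35 in place of 19.1, 17.9, 13.6 and 7.89. Egr1 changed less, to 9.73, 10.6, 6.20 and 5.62. A cluster of 197 nuclei inside the MSN-like subclass, led by Pde7b, Penk, Nr4a3 and Drd2, was singled out by the same sum among inhibitory clusters. It held Nr4a3 at 238.4, 207.6, 164.7 and 109.6 CPM. In it Npas4 was at 40.5, 68.2, 28.9 and 37.9 and Egr3 at 40.5, 25.6, 37.6 and 33.7. MSN-like nuclei outside it held Npas4 at 5.03, 7.34, 5.86 and 4.25, a mean of 5.62 that was below those of L6 CT-like (6.48) and L5 IT-like nuclei (5.99), and Nr4a3 at 32.2, 11.2, 20.1 and 12.1. That Nr4a3 mean, 18.9, was below the mean of LAMP5-like nuclei (21.3). The members took no part in the clustering, but genes that vary with them did, so these contrasts are given without a test.

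UMIs of different members were found in the same nuclei. In excitatory nuclei thinned to 4000 UMIs, a Nr4a3 UMI was present in 25.1% of the 299 nuclei with Npas4 and in 6.39% of the others. Npas4 was in 13.8% of nuclei with Fos and in 1.95% of the others, and Egr1 in 12.7% of the 505 nuclei with Arc and in 4.52% of the others. For these pairs the share was higher in all 4 libraries. Of the 72 ordered pairs of the 9 genes other than Homer1, 72 had the higher pooled share in nuclei with the first gene and 52 had it in all 4 libraries. In inhibitory nuclei the counts were 70 and 36 of 72. Both orders of a pair always go the same way, so these counts hold each pair in duplicate. Pairs of other genes at like levels were not read beside them. These nuclei belong to different subclasses, and the part of subclass in the pairs was not tested.

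Nuclei with UMIs of several members were less frequent in CrT-KO 2 than in the other libraries. At least 2 of the 9 genes were present in 10.2%, 9.86%, 10.0% and 5.55% of thinned excitatory nuclei, and at least 3 in 2.71%, 2.61%, 2.17% and 0.915%. For at least 2 genes the first 3 libraries lay close together, CrT-KO 1 included. In inhibitory nuclei at least 2 were present in 3.56%, 4.01%, 3.00% and 2.08%. Without thinning the excitatory shares for at least 2 were 22.8%, 23.1%, 23.8% and 12.8%.

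**Figure D4:**
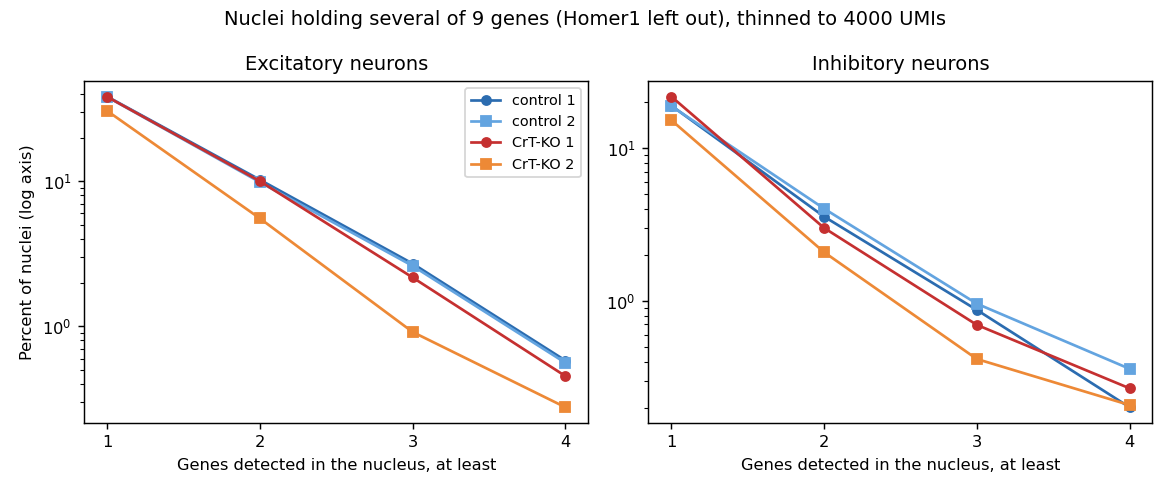
Percent of nuclei (log axis) with UMIs of at least 1, 2, 3 or 4 of the 9 genes other than Homer1, after thinning to 4000 UMIs, in excitatory (left) and inhibitory neurons (right), 1 line per library. In excitatory neurons CrT-KO 2 is the lowest line throughout and CrT-KO 1 lies near the controls. In inhibitory neurons CrT-KO 2 is the lowest at 1, 2 and 3 genes.

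The genotypes were compared on UMIs summed per library and population, with edgeR's quasi-likelihood test and Benjamini-Hochberg adjustment over all genes tested in that population, and genes with an adjusted p under 0.1 were called. Log2 differences are CrT-KO minus control, with a standard error worked back from the difference and the F statistic of its test. In excitatory neurons 0 of the 10 members were called, where 0.181% of 13817 genes were. At an unadjusted p under 0.05 there were 5 members, all lower in CrT-KO, where 4.36% of all genes were lower at that p, and DESeq2 called 0 with 4 at that p. These were Fos (-0.90 ± 0.25, edgeR adjusted p = 0.307), Egr3 (-0.64 ± 0.18, 0.309), Arc (-0.61 ± 0.17, 0.308), Egr1 (-0.41 ± 0.13, 0.346) and Npas4 (-0.59 ± 0.26, 0.569). The median log2 difference of the 10 members was -0.34, against -0.00 over all genes.

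Both CrT-KO libraries were below both control libraries for the same 5 genes, where 29.1% of all genes were. Fos in excitatory neurons was at 2.42, 3.75, 1.67 and 1.53 CPM and Egr3 at 17.8, 15.9, 13.0 and 7.64, so the gap between the groups was smaller than the spread within CrT-KO for Egr3. CrT-KO 2 was the lowest library for 10 of 10 members, where it was the lowest for 35.7% of all genes. Without CrT-KO 2, 1 of the 10 was at an unadjusted p under 0.05 and 5 were lower in CrT-KO. Leaving out CrT-KO 1 gave 7 at that p, all lower, and leaving out control 2 gave 2. Homer1 (-0.09 ± 0.09, edgeR adjusted p = 0.828) and Nr4a1 (0.05 ± 0.09, 0.919) had the narrowest intervals, -0.26 to 0.08 and -0.12 to 0.22, and Nr4a3 was at -0.20 ± 0.22 (0.857). The intervals assume a normal distribution, which makes them too narrow for so few libraries.

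**Figure D5:**
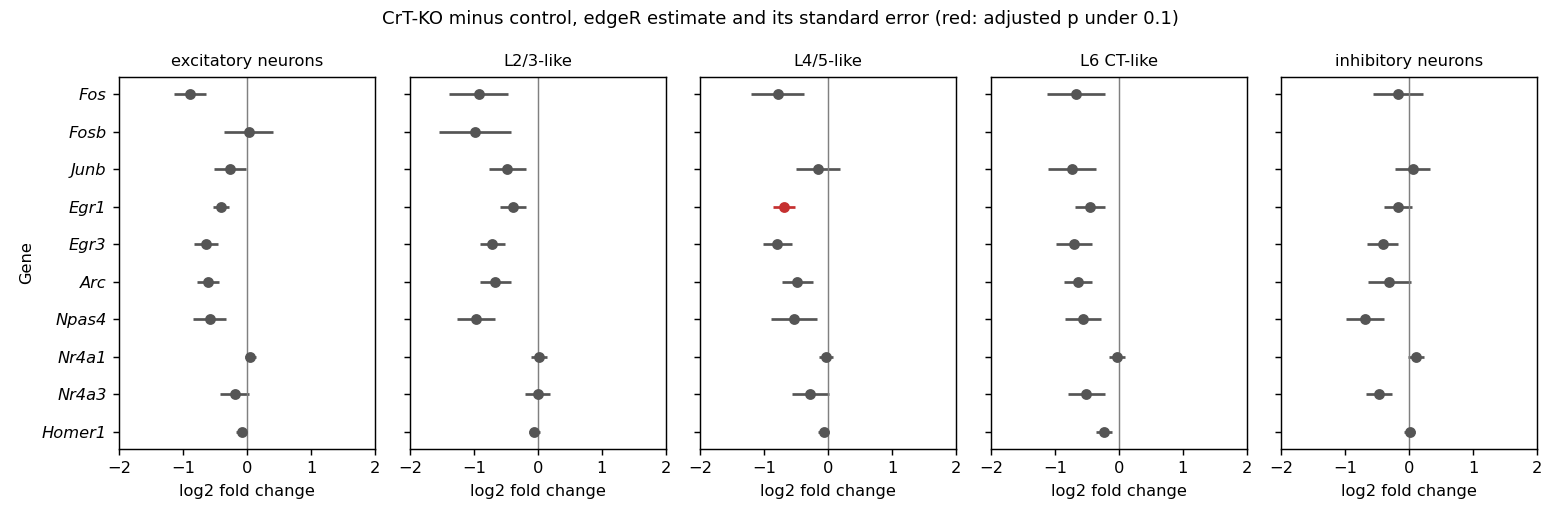
Log2 difference (CrT-KO minus control) of each member tested in excitatory neurons, L2/3-like, L4/5-like, L6 CT-like and inhibitory neurons, with the edgeR estimate as a point and its standard error as a bar. In the 4 excitatory panels Fos, Egr1, Egr3, Arc and Npas4 lie below 0 and Nr4a1 near 0, and the 1 red point, Egr1 in L4/5-like nuclei, is the call.

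By layer, 1 of 52 tests of members in excitatory subclasses was called, where 0.342% of all tests in those subclasses were. Egr1 in L4/5-like nuclei, the subclass where it was highest, was at 24.8, 28.1, 15.8 and 16.2 CPM, so both CrT-KO libraries were below both controls with a gap larger than the spread within either genotype. Its log2 difference was -0.69 ± 0.18 (edgeR adjusted p = 0.0993), in a subclass where 0.675% of 10523 genes were called. The call was lost with control 2 left out (adjusted p = 0.436), with CrT-KO 1 left out (0.226), with CrT-KO 2 left out (0.101) and with doublets kept (0.158), and DESeq2 gave it an unadjusted p of 0.0181 with no adjusted value. Its log2 difference stayed between -0.79 and -0.58 over the 10 alternatives. Egr3 in the same nuclei was at 20.3, 20.8, 14.5 and 8.23 CPM, a log2 difference of -0.80 ± 0.22 (adjusted p = 0.16). In L2/3-like nuclei 0 of 10 were called (1.16% of all genes), with Egr3 at -0.71 ± 0.20 (adjusted p = 0.117), Npas4 at -0.96 ± 0.30 (0.172) and Arc at -0.66 ± 0.24 (0.319).

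In L6 CT-like nuclei, where Arc was highest, 0 of 9 tested members were called (0.0284% of all genes). Arc there was at -0.64 ± 0.22 (edgeR adjusted p = 0.519) and Egr3 at -0.71 ± 0.28 (0.609). CrT-KO 2 was the lowest library for all 10 members in both L2/3-like and L6 CT-like nuclei, where it was the lowest for 33.1% and 29.6% of all genes. In L5/6 NP-like nuclei, where Nr4a3 was highest, 0 of 3 tested were called (0.0149%), and Nr4a3 was at -0.92 ± 0.25 (adjusted p = 0.358). Over the 52 tests 40 differences were below 0 and 10 had an unadjusted p under 0.05 (7.36% of all tests), of which 9 were lower. The exception was Nr4a1 in claustrum-like nuclei, at 0.69 ± 0.28 (0.724).

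Inhibitory neurons gave 0 calls of 9 tested members (0.0701% of 12831 genes), and Fosb had too few UMIs to be tested. Those at an unadjusted p under 0.05, both lower where 3.05% of all genes were, were Nr4a3 (-0.47 ± 0.20, edgeR adjusted p = 0.865) and Npas4 (-0.70 ± 0.30, 0.885). DESeq2 called 0 and had 0 at that p. Npas4 was at 3.87, 7.61, 4.25 and 2.68 CPM, so the libraries of the genotypes overlapped. In the 5 inhibitory subclasses 0 of 19 tests were called (0.102% of all tests) and 4 were at an unadjusted p under 0.05 (5.44%). They were Nr4a1 in SST-like nuclei (21.3, 22.6, 39.1 and 28.1 CPM, 0.64 ± 0.22, adjusted p = 0.754), Nr4a3 and Egr1 in MSN-like nuclei (-0.49 ± 0.19 and -0.66 ± 0.32, adjusted p = 0.642 and 0.783) and Nr4a3 in LAMP5-like nuclei (-0.996 ± 0.49, 0.962). The members tested in PV-like nuclei, 3 in number, were not among them. Of 10 tests in glial and vascular classes 0 were called (0.0303% of all tests), and Arc in oligodendrocytes (-1.49 ± 0.46, adjusted p = 0.411), at 15, 20, 7 and 4 UMIs, was the 1 test at an unadjusted p under 0.05 (5.49%).

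Whether the genotype difference itself depended on class or layer was tested as an interaction, with libraries as a block. Between excitatory and inhibitory neurons 0 of 10 members were called (0.192% of 14059 genes), and the lowest adjusted p, from edgeR, was 0.516 for Nr4a3, whose excitatory minus inhibitory difference was 0.31 ± 0.11. Between L2/3-like and L6 CT-like nuclei 0 of 10 were called (0.588% of 11560 genes), with Nr4a3 at 0.52 ± 0.20 (0.495) and Homer1 at 0.20 ± 0.08 (0.592). For Egr3 the L2/3-like minus L6 CT-like difference was 0.01 ± 0.23 and for Arc -0.02 ± 0.24. These tests call no difference between the populations, and they do not show that the effects are equal. DESeq2 called 0 members in every comparison, but it gave an adjusted p to only 7 of the 10 in excitatory neurons, 3 in L2/3-like, 2 in L4/5-like and 3 in L6 CT-like nuclei and 2 in the L2/3-like against L6 CT-like interaction, so the others could not be called. In both interactions it had 0 at an unadjusted p under 0.05.

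Other genes of the activity response were read from the same fits. Over all 13817 genes tested in excitatory neurons, 0.181% were called and 1188 were at an unadjusted p under 0.05. Of 30 other rapid activity-regulated genes 26 were tested in excitatory neurons, 0 were called, 1 was at an unadjusted p under 0.05 and 16 of 26 were below 0. All 20 later activity-regulated genes were tested, with 0 called, 1 at that p and 17 below 0. Of the 24 genes of upstream signalling tested, 0 were called, 3 were at an unadjusted p under 0.05, all higher in CrT-KO, and 8 were below 0. Median log2 differences of the rapid, later and upstream lists were -0.042, -0.080 and 0.054, against -0.004 over all genes. The summed rapid list stood at 194.9, 173.0, 196.7 and 151.1 CPM, again with CrT-KO 2 lowest. In inhibitory neurons 0 of 21 rapid and 0 of 18 later genes were called (0.0701% of 12831 genes).

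Heat shock genes, which encode chaperones and are also induced quickly, were lower in CrT-KO nuclei in several populations, and they accounted for all 8 calls among the 4 other lists. In excitatory neurons 2 of 8 tested were called (0.181% of all genes), both lower. Hspa5, a chaperone of the endoplasmic reticulum, was at 13.9, 14.6, 7.80 and 8.19 CPM (-0.78 ± 0.12, edgeR adjusted p = 0.035), and Hsph1 was at 31.7, 28.8, 20.9 and 20.6 (-0.49 ± 0.09, 0.0956). In inhibitory neurons 3 of 9 were called (0.0701% of all genes), all lower, namely Hsp90ab1 (-0.77 ± 0.12, 0.00882), Hspa5 (-0.83 ± 0.15, 0.021) and Hspa8 (-0.70 ± 0.14, 0.0812). In L2/3-like nuclei, where 1.16% of all genes were called, Hspa8 (-0.84 ± 0.19, 0.0412) and Hsph1 (-0.52 ± 0.14, 0.0996) were among them. In MSN-like nuclei, where 0.322% of all genes were called, Hspa5 was (-1.27 ± 0.28, 0.0804).

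The 12 heat shock genes summed to 126.2, 124.4, 89.8 and 79.6 CPM in excitatory neurons, where 10 of 12 had both CrT-KO libraries below both controls (29.1% of all genes tested). Both CrT-KO sums were below both control sums. The 12 astrocyte markers summed to 954.1, 899.8, 901.2 and 812.9 CPM in excitatory neurons and the 14 microglial markers to 51.5, 45.7, 45.9 and 46.2. CrT-KO 2 also had the fewest UMIs and the lowest median UMIs per nucleus of the 4 libraries, 51507480 and 5548. Mitochondrial UMIs were 0.0507% to 0.0628% of the total. The part of these measures in the members' differences was not tested.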

How the data were processed

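The 4 GEO samples, 2 control and 2 CrT-KO, were grouped by their titles, with 1 library per animal. The authors deposited raw UMI counts per gene and nucleus, filtered for nuclei, made with Cell Ranger 3.1.0 on a GRCm38 (mm10) reference in which whole gene bodies were counted, so intronic reads entered the counts. The study used Seurat 3.1.4. Here, doublets were called with Scrublet (scanpy 1.11.5) and left out, nuclei were clustered (Leiden, 30 principal components, 3000 variable genes, members and activity lists left out) and named from marker lists, with an offset of 20 CPM for leading genes that was set after seeing the data. Counts were summed per library and population and tested with edgeR 4.0.16 (TMM, low-count filter, adjusted p under 0.1), a fit first tested on simulated data. DESeq2 1.42.0, total-UMI scaling, no filter, a replicate block, doublets kept, 1000 UMIs per nucleus, a threshold of 0.05 and each library left out were alternatives. Named genes were all members, called genes of the other lists, and the 6 genes most like the summed members. The members and lists were chosen with earlier results of these data known. With 2 animals per genotype, p-values measure the spread between these animals, and intervals and floors of single counts cover counting error only.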

Additional observations from a re-analysis of the deposited data

Results flagged for a closer look

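Nr4a1 differed in direction between subclasses. Its log2 difference, CrT-KO minus control, was 0.69 in claustrum-like and -0.47 in L5/6 NP-like nuclei, 1.16 apart, with both CrT-KO libraries above both controls in the first and below them in the second. Between SST-like (0.64) and L5/6 NP-like nuclei it was 1.11 apart in the same way. These pairs were singled out because every library moved one way in 1 subclass and the opposite way in the other, and the difference between subclasses was not tested. None of the 3 effects passed the adjusted threshold.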

How the results depend on the processing

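Depth and 2 animals per genotype limit these results, and Fos, Fosb and Junb most. Where a library was left out, the lone library was assumed to vary like the other genotype's pair. The call count of excitatory neurons, 0, became 2 (Egr3 and Fos) with the replicate block and stayed 0 otherwise. That of inhibitory neurons ranged from 0 to 1 with 1 library left out. That of the excitatory subclasses, 1, became 0 with DESeq2 (which gave that gene no adjusted p), 0 with doublets kept, 0 at an adjusted p under 0.05, 2 with no filter and 5 with the block, and ranged from 0 (without CrT-KO 2) to 10 (without CrT-KO 1), with 5 without control 1 and 2 without control 2. The 8 calls of the other lists became 5 with DESeq2, 4 with doublets kept, 4 at 0.05, 18 with no filter and 29 with the block, and ranged from 11 to 21 with 1 library left out. The labels do not say whether same-numbered libraries are pairs. Their deviations correlated at r from -0.03 to 0.16 over the populations, which does not settle it. The block moved the calls over all genes in excitatory neurons from 25 to 374. It changed no inhibitory, glial or vascular member call. The share of excitatory nuclei with at least 2 members, 8.91% on average, was 20.6% without thinning. With UMIs per nucleus in place of CPM, 5 of 10 members kept their highest population.

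Small log2 differences changed sign. Fosb in excitatory neurons was at -0.0132 with DESeq2, -0.0262 with total UMIs, -0.044 with the block and -0.0854 with doublets kept, and Junb and Homer1 in inhibitory neurons were at -0.0543 and -0.0711 with doublets kept, Homer1 also at -0.0102 with total UMIs. With 1 library left out, the excitatory ranges that crossed 0 ran, from without CrT-KO 1 to without CrT-KO 2, from -0.998 to 0.538 for Fosb, -0.903 to 0.134 for Junb, -0.0886 to 0.17 for Nr4a1 and -0.237 to 0.0482 for Homer1, and for Nr4a3 from -0.63 (without CrT-KO 1) to 0.185 (without control 1). The inhibitory ones ran in the same order from -0.717 to 0.145 for Fos, -0.163 to 0.205 for Junb, -0.49 to 0.0396 for Egr1, -0.0702 to 0.239 for Nr4a1 and -0.0913 to 0.0942 for Homer1. Nr4a3 in LAMP5-like nuclei ran from -2.04 (without CrT-KO 2) to 0.107 (without control 2). The cause was not tested. L6b-like nuclei were not named with doublets kept.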
